A study of Populus trichocarpa with 9 samples.

Results

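Genes of the shikimate ester steps of lignin biosynthesis were examined in xylem protoplasts of Populus trichocarpa overexpressing either of a pair of transcription factors (TFs). The 5 genes were PtrHCT1 (Potri.003G183900), PtrHCT6 (Potri.001G042900), PtrC3H3 (Potri.006G033300), PtrCSE1 (Potri.003G059200) and PtrCSE2 (Potri.001G175000), taken by the identifiers that the study's primer table gives for the HCT, C3H and CSE steps, out of 41335 genes in the expression table. SDX protoplasts, wall-less cells released by enzymes from the stem-differentiating xylem, were prepared from 6-month-old greenhouse trees, transfected with plasmid DNA by polyethylene glycol and incubated for 12 h before RNA-seq. One group of 3 libraries overexpressed PtrHSFB3-1, a class B heat shock factor, and a group of 3 overexpressed PtrMYB092, an R2R3 MYB factor. The control group of 3 libraries, called GFP, received the plasmid with green fluorescent protein alone. All constructs were driven by the 35S promoter, which is active in most plant cells, and both TF plasmids carried a 35S-driven GFP cassette as well, so GFP was common to all 3 groups. The plasmid DNA stayed transient, so the groups are no stable transgenic lines.

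Lignin is made from phenylalanine by way of hydroxycinnamic acids. To add the second hydroxyl group to the ring, plant cells first tie the p-coumaroyl unit to shikimate. HCT (hydroxycinnamoyl-CoA:shikimate hydroxycinnamoyl transferase) makes this ester, and C3H (p-coumaroyl ester 3-hydroxylase, a cytochrome P450) hydroxylates it to caffeoyl shikimate. HCT can then run in reverse to return caffeoyl-CoA, while CSE (caffeoyl shikimate esterase) instead cuts the ester to free caffeic acid. These steps stand between p-hydroxyphenyl units and the guaiacyl and syringyl units that make up most of the lignin of wood, which in poplar is laid down in the secondary walls of xylem fibers and vessels.

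PtrHCT1 and PtrHCT6 both encode HCT, and the primers that the study designed for quantitative PCR show how near the copies are at the primer sites. The primers are printed because a sequencing read from a stretch equal in both copies cannot be given to one copy with certainty. Bases in capitals are equal in both copies at the best ungapped alignment, and bases in lower case differ or lie outside it.
PtrHCT1 forward: ATCAgCATGtAAgGCACGcGg
PtrHCT6 forward: agATCAaCATGcAAaGCACGtGa
PtrHCT1 reverse: tGCCAAAGTAACCAGGtGGaAGcgt
PtrHCT6 reverse: GCCAAAGTAACCAGGaGGgAGttg
The forward primers were equal at 16 of 21 aligned bases and the reverse primers at 19 of 24, with a longest shared run of 15 bases. The primers for PtrCSE1 and PtrCSE2 were equal at only 7 of 17 and 9 of 16 aligned bases. They may lie at different places in the transcripts, so they do not show how alike the CSE copies are. The HCT primers cover only short sites, which differ at some bases, and how alike the whole HCT transcripts are was not examined. How the authors counted reads shared by paralogs is not given in the sources used here, so the split of a value between PtrHCT1 and PtrHCT6 is uncertain. The split between PtrCSE1 and PtrCSE2 was not examined.

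The deposited values are whole numbers, with column totals of 428358 to 495579 per library, on a scale treated as unknown because low values scattered less between libraries than reads drawn at random would. Levels are therefore compared between libraries for 1 gene, not between genes, and no counting error is given. The transfected TFs followed the library titles. PtrHSFB3-1 was at 19859, 31149 and 42965 in replicates 1, 2 and 3 of its own group, at 119, 105 and 165 with PtrMYB092 and at 67, 53 and 61 with GFP. PtrMYB092 was at 6922, 11036 and 17727 in its own group, against 4 to 6 in the other 6 libraries. For replicates 2 and 3 of PtrMYB092, a label field gives PtrHSFB3-1 instead, so results were also computed without them. Of the markers of wood-forming cells, the 5 secondary wall cellulose synthase genes PtCesA4, PtCesA7, PtCesA8, PtCesA17 and PtCesA18 were at 0 to 2 in every library, so these markers of the labelled tissue were at or near 0 in all 3 groups.

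PtrMYB092 overexpression raised all 5 shikimate ester genes above the GFP control, from 2.87-fold for PtrCSE2 to 16.6-fold for PtrC3H3 and 17.2-fold for PtrHCT6. The order of the last pair depends on the pseudocount of 1, since with a pseudocount of 5 the log2 fold change was 3.48 for PtrC3H3 and 2.85 for PtrHCT6. A gene was called at a limma adjusted p under 0.05 together with a fold change over 2 or under 0.8, fold changes being on the log2(scaled value + 1) scale, which understates changes of low genes. Across the 7653 genes tested, 4.6% were called higher with PtrMYB092, against 5 of 5 here. PtrHCT6 entered the test only because it was high with a TF, reaching the level for testing in 3 PtrMYB092, 1 PtrHSFB3-1 and 0 GFP libraries. PtrHCT1 reached it in 3 PtrMYB092, 0 PtrHSFB3-1 and 2 GFP libraries, and PtrC3H3 in 3, 3 and 1. All of these entered through TF libraries in which they were high, so they add no weight to this or the other counts of called genes. PtrCSE1 and PtrCSE2 reached the level in all 9 libraries. PtrHSFB3-1 overexpression raised PtrC3H3 and PtrCSE1, that is 2 of the 5 genes against 7.08% of all genes tested. None of the 5 was called lower, against 2.99% of all genes, and none of the 5 was lower at an unadjusted p under 0.05. With the replicate number as a block, PtrHSFB3-1 had 3 of the 5 called higher, PtrHCT6 being added, against 10.3% of all genes, and 1 called lower, PtrHCT1, against 16.8%. Set directly against PtrHSFB3-1, PtrMYB092 had 3 of the 5 genes called higher, both HCT genes and PtrC3H3, against 4.52% of all genes tested. The count fell to 1 without PtrHSFB3-1 replicate 2, without PtrHSFB3-1 replicate 3 or without PtrMYB092 replicate 3. Over all genes, those called higher also fell in these settings, from 346 to 277, 186 and 140. With the block, PtrMYB092 had the same 5 genes called against GFP and the same 3 against PtrHSFB3-1, where 6.06% and 5.61% of all genes were called higher. Both TFs share the GFP libraries, so only the direct comparison tests a difference between them. In RNA from whole protoplast populations, a change in the share of cells of one type and a change of RNA per cell cannot be told apart.

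**Figure D1:**
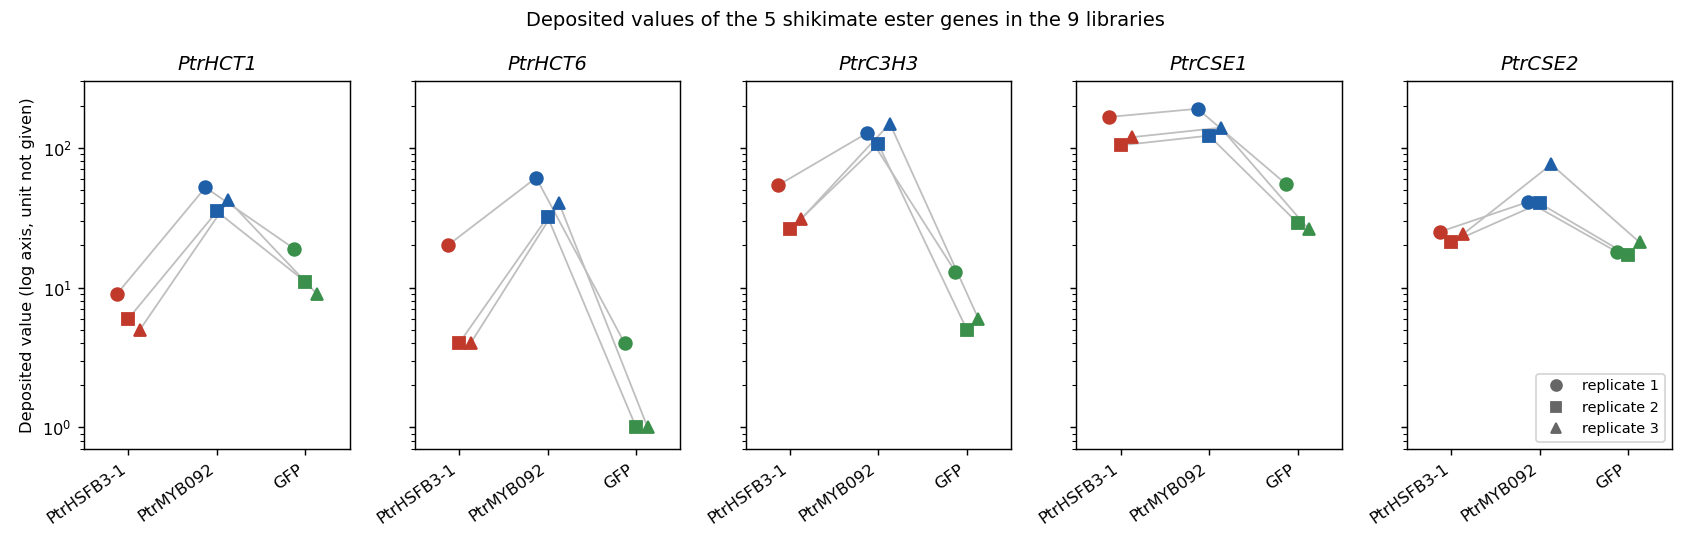
Deposited value (log axis, unit not given) of each gene in each library, by construct, with a symbol for each replicate number and grey lines joining libraries with the same number. PtrCSE1 was at 122 to 190 with PtrMYB092 against 26 to 55 with GFP, whereas PtrHCT1 was at 5 to 9 with PtrHSFB3-1 against 9 to 19 with GFP.

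PtrHCT1, which encodes one copy of the shikimate transferase, was at 9, 6 and 5 in PtrHSFB3-1 replicates 1, 2 and 3, at 52, 35 and 42 with PtrMYB092 and at 19, 11 and 9 with GFP. The PtrMYB092 libraries stood clear of both other groups, while the highest PtrHSFB3-1 library equalled the lowest GFP library. After scaling, the means were 7.22 ± 2.79 with PtrHSFB3-1, 43.5 ± 10.04 with PtrMYB092 and 11.8 ± 4.72 with GFP (SD, n = 3 each). With PtrMYB092 the log2 fold change over GFP was 1.84 (SE 0.317, adjusted p = 0.00909). This call was lost without PtrMYB092 replicate 1 (adjusted p = 0.0555) or without PtrMYB092 replicate 3 (adjusted p = 0.0566). Those fits did not use the replicate numbers, and the block fit on all libraries gave an adjusted p of 3.77e-05.

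With PtrHSFB3-1 the log2 fold change of PtrHCT1 was -0.63, with a 95% confidence interval of -1.35 to 0.09 (SE 0.317, adjusted p = 0.224), so it was not called without the block. Within replicate numbers the difference was nearly constant, at -0.67, -0.66 and -0.56 for numbers 1, 2 and 3. The block fit therefore gave the same log2 fold change an SE of 0.148, an interval of -0.96 to -0.29 and an adjusted p of 0.00921, a call of lower expression. That call was not kept in the block fit without replicate number 2 (adjusted p = 0.0891). All 3 PtrHSFB3-1 values lay below 10, the level a gene had to reach in 3 libraries to be tested, and PtrHCT1 was tested through its PtrMYB092 and GFP libraries. In the direct comparison, PtrMYB092 had PtrHCT1 5.52-fold above PtrHSFB3-1 (log2 2.46, SE 0.317, adjusted p = 0.00143).

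PtrHCT6, the other copy of the transferase, was at 20, 4 and 4 in PtrHSFB3-1 replicates 1, 2 and 3, at 61, 32 and 40 with PtrMYB092 and at 4, 1 and 1 with GFP. Replicate 1 of PtrHSFB3-1 stood apart from the other two, which equalled the highest GFP library, and the PtrMYB092 libraries lay above all others. The scaled means were 10.44 ± 10.98 with PtrHSFB3-1, 45.0 ± 16.6 with PtrMYB092 and 1.81 ± 1.56 with GFP (SD, n = 3 each).

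With PtrMYB092 the log2 fold change of PtrHCT6 over GFP was 4.10 (SE 0.628, adjusted p = 0.00477). The filter let this gene in through its PtrMYB092 libraries, and with no filter on low values the adjusted p was 0.00738. Since the GFP values were 1 to 4, this fold change depends on the pseudocount, as given above. With PtrHSFB3-1 the log2 fold change was 1.74, with an interval of 0.31 to 3.17 (SE 0.628, adjusted p = 0.105), and it was 1.01 (adjusted p = 0.201) without PtrHSFB3-1 replicate 1. In the block fit PtrHCT6 was higher with PtrHSFB3-1 than with GFP (SE 0.266, adjusted p = 0.00101), the differences being 2.39, 1.39 and 1.44 for numbers 1, 2 and 3.

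In the direct comparison, PtrMYB092 had PtrHCT6 higher than PtrHSFB3-1 by 2.36 on the log2 scale (SE 0.628, adjusted p = 0.034). Without PtrHSFB3-1 replicate 1 the log2 difference was 3.10 (adjusted p = 0.00464). Leaving out PtrHSFB3-1 replicate 2 or 3, or PtrMYB092 replicate 1, 2 or 3, ended the call, with adjusted p from 0.0686 to 0.136. These fits did not use the replicate numbers. In the block fit on all libraries PtrHCT6 was called (SE 0.266, adjusted p = 0.000133).

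The balance between the HCT copies was described by the log2 ratio of PtrHCT6 to PtrHCT1 within a library, of which only the change between groups can be read. The ratio was 1.07, -0.49 and -0.26 in PtrHSFB3-1 replicates 1, 2 and 3, 0.23, -0.13 and -0.07 with PtrMYB092 and -2, -2.58 and -2.32 with GFP. Every library of either TF thus had a higher ratio than every GFP library, by 2.41 on average with PtrHSFB3-1 and by 2.31 with PtrMYB092. The GFP ratios rest on PtrHCT6 values of only 4, 1 and 1, so the size of these differences depends on the pseudocount of 1. Within replicate numbers 1, 2 and 3 the difference from GFP was 3.07, 2.1 and 2.06 with PtrHSFB3-1, and 2.23, 2.46 and 2.25 with PtrMYB092. For each the two-sided exact permutation test of unpaired libraries gave p = 0.1, the smallest that 3 against 3 libraries allow. The TFs differed from each other by -0.10 (PtrMYB092 minus PtrHSFB3-1, exact permutation p = 1), and by 0.39 without PtrHSFB3-1 replicate 1. The ratio was above that of GFP with either TF, although PtrHCT1 itself was at or under the GFP values with PtrHSFB3-1 and above them with PtrMYB092.

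**Figure D2:**
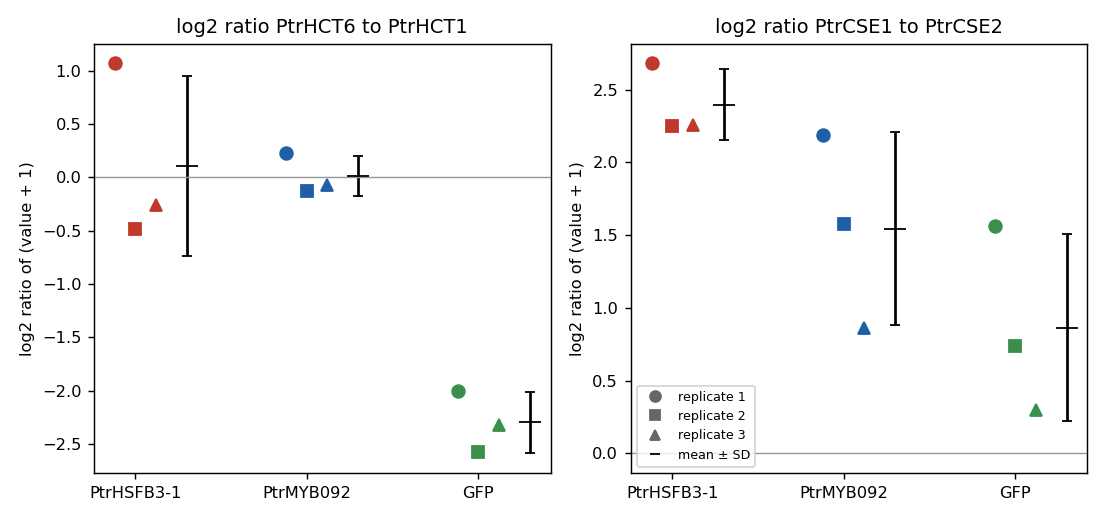
Log2 ratio of PtrHCT6 to PtrHCT1 (left) and of PtrCSE1 to PtrCSE2 (right), each of (value + 1), in every library, with the mean and SD of each group of 3. The HCT ratio was at -2.58 to -2 with GFP and at -0.49 to 1.07 in the 6 libraries of the TFs, and the CSE ratio was highest with PtrHSFB3-1 at 2.25 to 2.68.

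PtrC3H3, which encodes the 3-hydroxylase and so acts on the ester that HCT makes, was at 54, 26 and 31 in PtrHSFB3-1 replicates 1, 2 and 3, at 127, 106 and 149 with PtrMYB092 and at 13, 5 and 6 with GFP. The groups formed separate steps with no overlap, PtrMYB092 above PtrHSFB3-1 and PtrHSFB3-1 above GFP. The scaled means were 40.3 ± 19.4 with PtrHSFB3-1, 128.6 ± 24.5 with PtrMYB092 and 7.25 ± 3.90 with GFP (SD, n = 3 each). PtrC3H3 was 5.01-fold higher with PtrHSFB3-1 than with GFP (log2 2.32, SE 0.388, adjusted p = 0.00646), and this call was kept under each of 27 alternative settings. It was 16.6-fold higher with PtrMYB092 than with GFP (log2 4.05, SE 0.388, adjusted p = 0.000599).

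PtrMYB092 had PtrC3H3 above PtrHSFB3-1 by 1.73 on the log2 scale (SE 0.388, interval 0.85 to 2.61, adjusted p = 0.0171). This call was lost without PtrHSFB3-1 replicate 2, PtrHSFB3-1 replicate 3 or PtrMYB092 replicate 3, with adjusted p from 0.062 to 0.0788. Those fits did not use the replicate numbers. In the block fit the adjusted p was 0.000243. The block fit kept the call without number 1, 2 or 3, with adjusted p of 7.85e-07, 0.00857 and 0.00325. The difference between PtrHSFB3-1 and GFP was 2.32, 2.28 and 2.37 for replicate numbers 1, 2 and 3. These differences had an SD of 0.047, against a pooled SD within groups of 0.638.

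PtrCSE1, which encodes one of the esterases that release caffeic acid, was at 166, 104 and 119 in PtrHSFB3-1 replicates 1, 2 and 3, at 190, 122 and 139 with PtrMYB092 and at 55, 29 and 26 with GFP. The libraries of either TF lay above all GFP libraries, and the libraries of the TFs overlapped each other. The scaled means were 140 ± 45.9 with PtrHSFB3-1, 152 ± 40.6 with PtrMYB092 and 33.3 ± 14.2 with GFP (SD, n = 3 each). PtrCSE1 was 4.204-fold higher with PtrHSFB3-1 than with GFP (log2 2.07, SE 0.342, adjusted p = 0.00617), a call kept under each of 27 alternative settings. With PtrMYB092 the log2 fold change over GFP was 2.20 (SE 0.342, adjusted p = 0.00516).

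Between the TFs, PtrCSE1 differed by 0.13 on the log2 scale (PtrMYB092 minus PtrHSFB3-1), with an interval of -0.65 to 0.91 (adjusted p = 0.848). With the block the interval was -0.18 to 0.44. The sign of this difference turned when PtrHSFB3-1 replicate 2 (-0.08) or PtrMYB092 replicate 1 (-0.03) was left out. Among the 20 monolignol genes tested, PtrCSE1 had the smallest difference between the TFs.

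PtrCSE2, which encodes the other esterase, was at 25, 21 and 24 in PtrHSFB3-1 replicates 1, 2 and 3, at 41, 40 and 76 with PtrMYB092 and at 18, 17 and 21 with GFP. Replicate 3 of PtrMYB092 was well above the other two, and the lowest PtrHSFB3-1 library equalled the highest GFP library. The scaled means were 25.03 ± 3.95 with PtrHSFB3-1, 52.8 ± 21.2 with PtrMYB092 and 16.96 ± 1.93 with GFP (SD, n = 3 each). With PtrMYB092 the log2 fold change over GFP was 1.52 (SE 0.260, adjusted p = 0.00849). With PtrHSFB3-1 it was 0.53, with an interval of -0.06 to 1.12 (adjusted p = 0.21), and in the block fit the adjusted p was 0.0471 at a fold change of 1.44, under the limit of 2.

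Directly compared, PtrMYB092 had PtrCSE2 at 1.99-fold of its PtrHSFB3-1 level (log2 0.99, interval 0.40 to 1.58, adjusted p = 0.032). That passed the p threshold and fell just short of the fold limit of 2, and it passed both under 12 of 27 alternative settings.

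The log2 ratio of PtrCSE1 to PtrCSE2 was 2.68, 2.25 and 2.26 in PtrHSFB3-1 replicates 1, 2 and 3, 2.19, 1.58 and 0.86 with PtrMYB092 and 1.56, 0.74 and 0.30 with GFP. The PtrHSFB3-1 libraries lay above all others, and those of PtrMYB092 and GFP overlapped. The ratio was higher with PtrHSFB3-1 than with GFP by 1.54 (exact permutation p = 0.1). It differed by 0.68 between PtrMYB092 and GFP (exact permutation p = 0.2) and by -0.86 between PtrMYB092 and PtrHSFB3-1 (exact permutation p = 0.1), where 0.1 is the smallest p possible. These tests leave the replicate numbers out. Within numbers 1, 2 and 3 the difference between PtrMYB092 and GFP was 0.63, 0.85 and 0.57, of one sign with an SD of 0.148, against SDs of 0.662 and 0.641 within the PtrMYB092 and GFP groups. Between PtrHSFB3-1 and GFP it was 1.12, 1.52 and 1.97, and between PtrMYB092 and PtrHSFB3-1 it was -0.50, -0.67 and -1.40. With 3 pairs an exact sign-flip permutation test cannot go below p = 0.25, so the paired differences are given as values. In all, 6 such tests were made for the HCT and CSE ratios together, and none could reach 0.05.

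**Figure D3:**
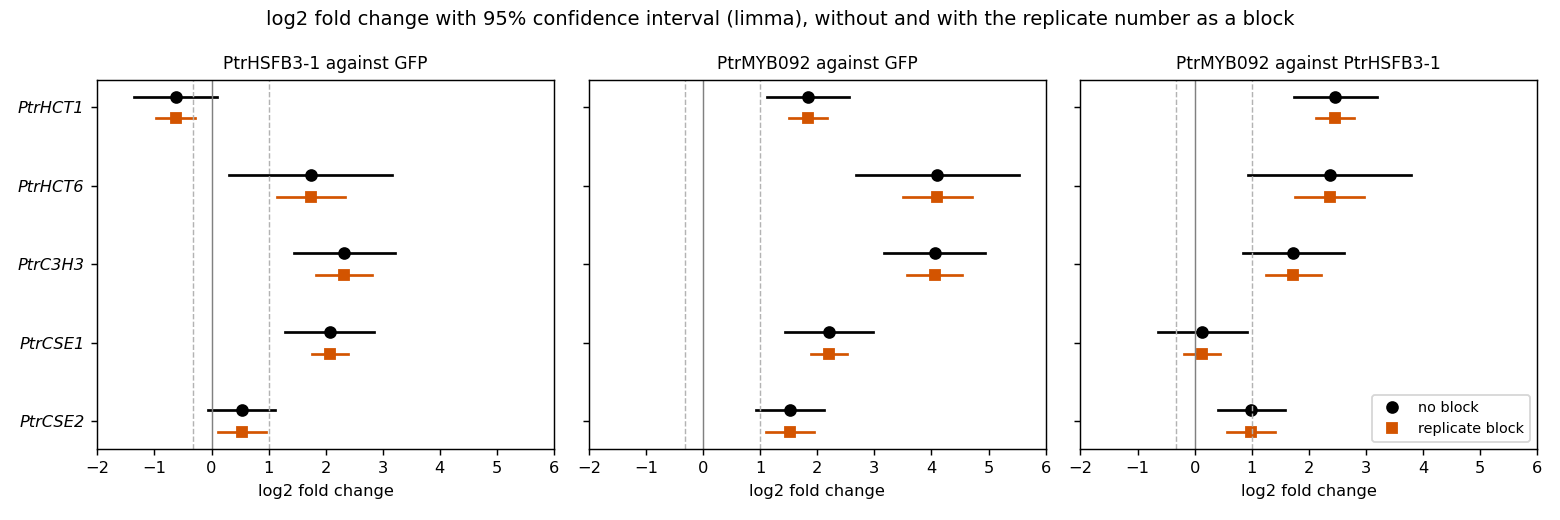
Log2 fold change of the 5 genes in the 3 comparisons with its 95% confidence interval, from limma without (black) and with (orange) the replicate number as a block; dashed lines mark the fold limits of 2 and 0.8. With PtrMYB092 all 5 intervals lay above 0, whereas with PtrHSFB3-1 the interval of PtrHCT1 lay at -1.35 to 0.09 without the block.

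Equal replicate numbers went with like deviations across libraries over all genes tested. On the log2 scale, replicate 1 exceeded the mean of replicates 2 and 3 for 5 of 5 genes with PtrHSFB3-1, by 0.32 to 2.24, for 4 of 5 with PtrMYB092 (range -0.36 to 0.82) and for 4 of 5 with GFP (range -0.08 to 1.27). PtrCSE2 had no common sign, at 0.32 with PtrHSFB3-1, -0.36 with PtrMYB092 and -0.08 with GFP. The share of all genes with replicate 1 higher was not computed, so these counts are descriptions. The transfected TFs were themselves lowest in replicate 1, at 19859 for PtrHSFB3-1 and 6922 for PtrMYB092, and the part of the TF level in these differences was not tested. With equal numbers paired, PtrHSFB3-1 exceeded GFP in all 3 pairs for 4 of the 5 genes, all but PtrHCT1, against 35.8% of all genes tested. PtrMYB092 exceeded GFP in all 3 pairs for 5 of 5 genes, against 28.5% of all genes, and exceeded PtrHSFB3-1 in all 3 pairs for 5 of 5, against 31.4%. For PtrCSE1 the last of these differences were only 0.04, 0.18 and 0.18. PtrHCT1, PtrHCT6 and PtrC3H3, which passed the filter only with TF libraries, add no weight to these counts of pairs.

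The size of the paired differences varied with the number for some genes. PtrC3H3 was above GFP by 3.38, 4.22 and 4.56 with PtrMYB092, and PtrHCT6 by 3.80, 4.06 and 4.45, for numbers 1, 2 and 3. Against PtrHSFB3-1, number 1 gave PtrMYB092 the smallest difference for every gene, for example 1.07 against 1.94 and 2.18 for PtrC3H3 and 1.41 against 2.68 and 3.00 for PtrHCT6.

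**Figure D4:**
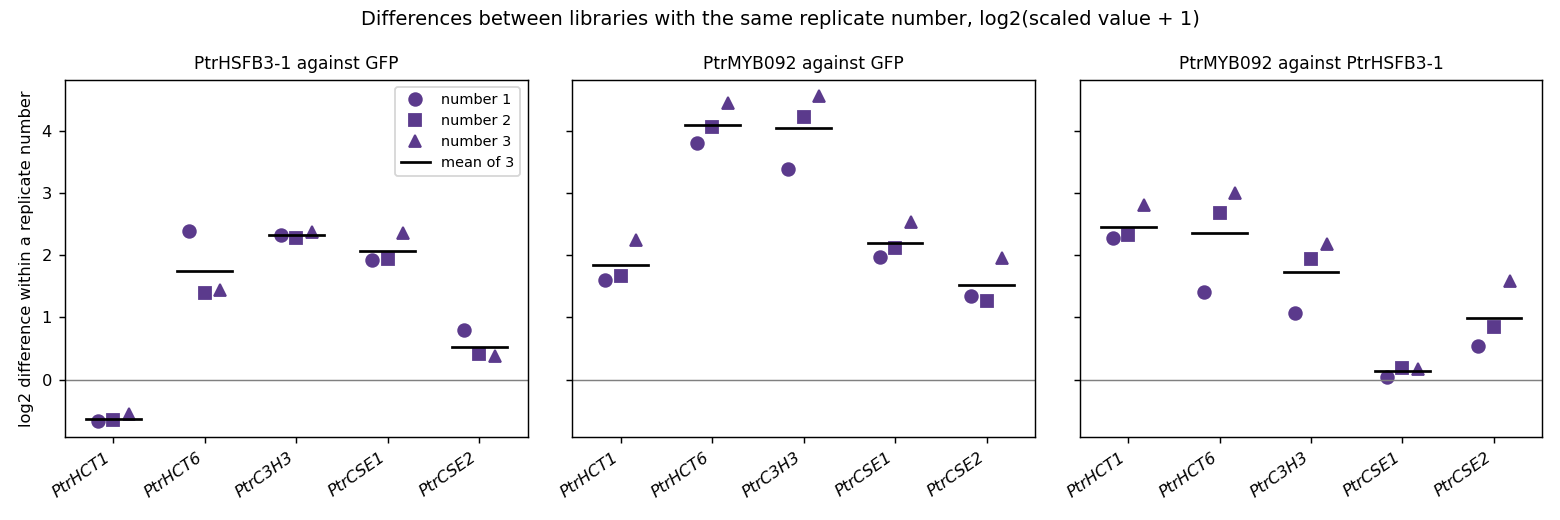
Difference of log2(scaled value + 1) between libraries with the same replicate number, for the 5 genes in the 3 comparisons, with a symbol for each number and a bar for the mean of 3. PtrHCT1 was below 0 in all 3 pairs of PtrHSFB3-1 and GFP, at -0.67 to -0.56, and every pair of PtrMYB092 and GFP was above 0.

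Over the 9 libraries, which share the groups and the replicate numbers, the log2 values of the 5 genes were correlated with each other from r = 0.395 for PtrHCT1 and PtrCSE1 to r = 0.965 for PtrHCT6 and PtrC3H3. The HCT copies had r = 0.792 and the CSE copies r = 0.698. Among the 5, PtrC3H3 was the nearest to PtrHCT6, PtrCSE1 and PtrCSE2, and PtrHCT6 the nearest to PtrHCT1. Of 7652 other genes tested, PtrCCoAOMT2, a caffeoyl-CoA O-methyltransferase of the next step, was the most like PtrC3H3 (r = 0.997), and PtrPAL1, a phenylalanine ammonia-lyase at the entry of the pathway, was the most like PtrHCT6 (r = 0.996). PtrPAL1 was at 399, 86 and 111 in PtrHSFB3-1 replicates 1, 2 and 3, at 1919, 883 and 1119 with PtrMYB092 and at 122, 41 and 37 with GFP, with replicate 1 the highest of each group as for PtrHCT6.

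The nearest monolignol gene to PtrCSE1 was PtrPAL5 (r = 0.982, rank 5 among all genes), and the nearest to PtrCSE2 was PtrCCoAOMT1 (r = 0.955, rank 16). For PtrHCT1 the nearest monolignol gene, the O-methyltransferase PtrAldOMT2, had only rank 32 (r = 0.941). The gene most like PtrHCT1 was Potri.010G183500 (r = 0.985), which the sources leave unnamed, at 30, 18 and 15 with PtrHSFB3-1, 178, 168 and 195 with PtrMYB092 and 70, 26 and 20 with GFP. As PtrHCT1 was, it was lower with PtrHSFB3-1 than with GFP for each replicate number as deposited. Genes picked by r over these libraries share their partner's pattern by that choice, PtrPAL1 with PtrHCT6 included. Such likeness adds no weight to the values of the partner. All r are descriptions over 9 libraries.

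Of the 17 other monolignol genes in the same primer table, 15 were tested. Some of these reached the level for testing mainly in TF libraries, such as PtrPAL5, at 18, 2 and 1 with GFP. Genes that entered so add no weight to the counts and medians below, nor do PtrHCT1, PtrHCT6 and PtrC3H3. With PtrMYB092, 13 of the 15 were called higher than GFP, against 4.6% of all genes tested. The block gave 14, against 6.06% of all genes, adding PtrCAD1, a cinnamyl alcohol dehydrogenase, at an adjusted p of 0.00023 against 0.082 without it. The median log2 fold change of the 15 was 4.38, against 2.20 for the 5 shikimate ester genes and -0.05 for all genes tested. PtrPAL2, another phenylalanine ammonia-lyase, had the highest value at 6.88, and PtrCAld5H2, the hydroxylase of the syringyl branch, had the lowest at 0.11 (adjusted p = 0.928). With PtrHSFB3-1, 9 of the 15 were called higher (12 with the block) and none lower. Of all genes tested, 7.08% were called higher and 2.99% lower (10.3% and 16.8% with the block). The median of the 15 was 2.06, against 1.74 for the 5 genes and 0.01 for all genes tested. PtrPAL5 was highest at 4.80, and PtrHCT1 was the lowest of all 20 monolignol genes tested. Between PtrMYB092 and PtrHSFB3-1, 9 of the 15 were called higher with PtrMYB092 (12 with the block), against 4.52% of all genes tested (5.61% with the block). The median of the 15 was 1.94, against 1.73 for the 5 genes and 0.02 for all genes. The highest was PtrC4H2, the cinnamate hydroxylase, at 3.53.

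**Figure D5:**
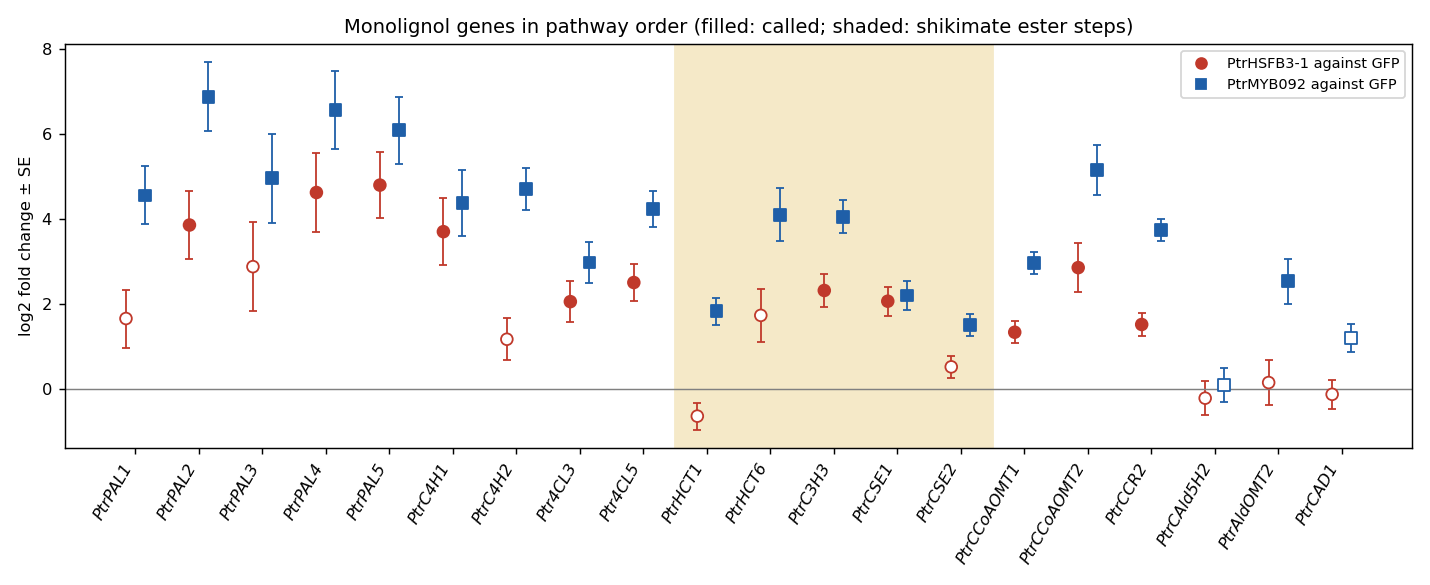
Log2 fold change over GFP (± SE) of the 20 monolignol genes tested, in pathway order, with PtrHSFB3-1 (circles) and PtrMYB092 (squares); filled symbols were called and the shaded band holds the 5 shikimate ester genes. PtrHCT1 with PtrHSFB3-1 was the lowest circle at -0.63, and PtrCSE1 had circle and square nearest to each other at 2.07 and 2.20.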

How the data were processed

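RNA-seq was analysed in 9 libraries of SDX protoplasts, 3 each for PtrHSFB3-1, PtrMYB092 and GFP, grouped by the labels. The authors used Bowtie 2 for alignment to the P. trichocarpa genome; TopHat appears in the submitters' processing notes. The sources used here do not give how reads were counted, with or without strand and over paralogs. The authors deposited whole numbers labelled as raw counts, which were treated as a score of unknown scale: for genes whose values sum to 2 over a pair of libraries, 81.9% to 97.5% were equal in both, and the spread was 0.0503 to 0.383 times that of random draws over the 36 pairs. At sums of 5 to 8 the spread was 0.244 to 1.07 times that of random draws, and at sums of 129 to 512 it was 3.91 to 38.5 times. Because of the lowest values no test for read counts was used, and the test planned for counts was replaced after these had been seen. Reads behind a value are unknown, so no counting interval is given. Unmapped columns numbered 0.

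Of 27542 genes above 0, 7653 were tested: those with a summed value of 15 or more that reached 10, at the median column total of 454442, in 3 or more libraries. Values were scaled by an unweighted TMM on these genes (trimmed by 30% of ratios and 5% of levels), and log2(value + 1) was tested with limma 3.58.1 in R 4.3.3 over all 9 libraries with a mean per construct, a variance trend, 6 residual degrees of freedom and Benjamini-Hochberg adjustment over all 7653 genes. The calling thresholds are those the study states. Ratios were compared by exact permutation. The code was tested on simulated data. Alternatives were other scalings (median of ratios, column totals), filters, thresholds and pseudocounts (0.5 and 5), no variance trend, only the 6 libraries compared, the block, and libraries left out.

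For the 9 pairs of libraries with equal replicate numbers, deviations from group means had correlations of 0.516 to 0.863 over genes. The 18 other pairs had -0.706 to 0.267. Deviations sum to 0 within a group, so high values at equal numbers lower the others, and the contrast is partly built in. Given the correlations at equal numbers, the numbers were treated as a pairing. Where it changes a call, the result of a model that adds replicate number as a block, with 4 residual degrees of freedom, is also given. The paper calls the libraries of each group biological replicates. What libraries with an equal number share is not stated, and the p-values measure only the spread between these libraries. The genes and lists were chosen with earlier results of these data known. Genes named are the 22 monolignol genes of the study's primer table, the TFs, the cellulose synthases, and for each of the 5 genes the gene of highest correlation. Of 41335 gene IDs, 0 matched the reference table, so no coordinates, promoters or proteins are given.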

Additional observations from a re-analysis of the deposited data

How the results depend on the processing

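Across 27 alternative settings, 357 of 394 log2 fold changes of the 5 genes kept their direction and side of the threshold, 18 passed it newly, 17 no longer passed it and 2 changed sign. The cause of these changes was not tested. The 2 were PtrCSE1 between PtrMYB092 and PtrHSFB3-1 without PtrHSFB3-1 replicate 2 (-0.08076) and without PtrMYB092 replicate 1 (-0.03339), its range with a library left out being -0.08076 to 0.3632, and the HCT ratio between the TFs turned to 0.385 without PtrHSFB3-1 replicate 1. With PtrMYB092 replicates 2 and 3 left out, which leaves 1 library assumed to vary like the other groups, PtrHCT6 failed the filter and 0 of the 4 genes then tested were called higher than GFP, although their log2 fold changes were 4.13 for PtrC3H3, 2.63 for PtrCSE1, 2.18 for PtrHCT1 and 1.30 for PtrCSE2 (adjusted p from 0.0721 to 0.152). Of the 4, 1 was called higher than PtrHSFB3-1. Over all genes 1 and 24 were called higher in these comparisons and 0 and 123 lower, and 127 lower between PtrHSFB3-1 and GFP. An adjusted p under 0.01 left 1 of the 5 higher with PtrMYB092 than with PtrHSFB3-1.

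With the replicate block 1 of the 5 genes was lower with PtrHSFB3-1 than with GFP, as it was without replicate number 1 or 3 in the block fit (1 each). The block changed no other call of the 5 genes than those of PtrHCT1 and PtrHCT6 given with the results. PtrHCT6 gave no value without replicate 1 of all groups, in the block fit without number 1 or with PtrMYB092 replicates 2 and 3 left out, since it then failed the filter, nor did PtrHCT6 and PtrHCT1 in the fit of PtrHSFB3-1 and GFP libraries alone.

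Counts over all genes moved more, and the block fits without 1 replicate number and the TMM over all genes were added after the data had been seen. Main counts were 542 higher and 229 lower for PtrHSFB3-1 against GFP, 352 and 28 for PtrMYB092 against GFP, and 346 and 751 for PtrMYB092 against PtrHSFB3-1. Genes higher in these 3 comparisons were 322 (the first) and 200 (the last) at an adjusted p under 0.01 and 1076, 829 and 835 with no filter, and 225 for PtrMYB092 against GFP with the filter at 20. In the block fit without number 3, 221 were higher with PtrMYB092 than with PtrHSFB3-1.
Genes lower for PtrHSFB3-1 against GFP were 27 at an adjusted p under 0.01, 87 at a fold under 0.5, 858 with column totals only, 439 with totals after the transgenes were left out, 435 with TMM over all genes, 1288 with the block and 1085, 380 and 715 with the block without number 1, 2 or 3. For PtrMYB092 against GFP they were 3 at an adjusted p under 0.01, 17 at a fold under 0.5, 45 with column totals only, 57 with no filter, 585 with the block and 468, 101 and 192 with the block without number 1, 2 or 3. For PtrMYB092 against PtrHSFB3-1 they were 338 at an adjusted p under 0.01, 1496 with no filter, 1723 with the block and 1282 and 1242 with the block without number 1 or 3.

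With each library left out in turn, 197 to 554 genes were higher and 24 to 245 lower for PtrHSFB3-1 against GFP, 141 to 375 higher and 3 to 45 lower for PtrMYB092 against GFP, and 140 to 372 higher and 276 to 728 lower for PtrMYB092 against PtrHSFB3-1. Of the 5 genes, 1 to 4 were then higher with PtrMYB092 than with PtrHSFB3-1, the count being 1 without PtrHSFB3-1 replicate 2, PtrHSFB3-1 replicate 3 or PtrMYB092 replicate 3. The HCT ratio between the TFs ranged from -0.393 to 0.385.

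Scaling moved the centre of all genes. With column totals only, their median log2 fold change was -0.253 for PtrHSFB3-1 against GFP, -0.135 for PtrMYB092 against GFP and 0.207 for PtrMYB092 against PtrHSFB3-1, and PtrHCT1 with PtrHSFB3-1 was at -0.88, still not called. The share of called genes that were higher for PtrHSFB3-1 against GFP was 70.3% as reported, 32.2% with column totals only, 50.5% with totals after the transgenes were left out and 51.8% with TMM over all genes. For PtrMYB092 against PtrHSFB3-1 it was 31.5% as reported, and 46.5% and 41.5% with those totals. The single-gene limits of leaving out libraries stand with the results, and a missed threshold shows no absence of a difference at 3 libraries a group.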
